A study of Homo sapiens with 10 samples.

Results

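The entry of human embryonic stem cells (hESCs) into definitive endoderm (DE) was followed from day 1 to day 3 of Activin A treatment, with the libraries of days 2 and 3 set against that of day 1. These were 3 of the 10 libraries of a bulk RNA-seq time course that ran on to hepatocyte-like cells. Of the 12125 genes in the deposited table, 8926 had a value of at least 50 on day 1, 2 or 3 and were compared, and 3199 stayed below it. All cells were of H1, an established hESC line, kept in serum-free RPMI medium with B27 lacking insulin and with Activin A at 100 ng per ml on each of these 3 days. The labels presume early definitive endoderm for day 1 and definitive endoderm for days 2 and 3, and day 0 is the untreated line. After day 3, BMP2 and FGF4 replaced Activin A in medium with insulin, and HGF with KGF and then Oncostatin M followed. The course was run in 1 line with 1 library per day, and no library was kept in the same medium without Activin A, so that the effect of the factor and that of time in culture cannot be told apart.

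Activin A binds the receptors that Nodal uses in the embryo, and the receptor kinases phosphorylate SMAD2 and SMAD3, which enter the nucleus with SMAD4 and bind DNA with partners such as FOXH1. Strong and lasting signalling of this kind takes pluripotent cells through a primitive streak or mesendoderm state, marked by EOMES, MIXL1 and GSC, into definitive endoderm, the source of liver, pancreas, lung and gut. Cells of this germ layer are known by the transcription factors SOX17 and FOXA2, the secreted inhibitor CER1 and the chemokine receptor CXCR4, and the genes of the pluripotent state are shut down along the way.

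The 250 bases before a RefSeq transcription start (GRCh38.p14) are shown for 3 genes of this transition, the markers CER1 and CXCR4 and the retinoic acid hydroxylase CYP26A1, chosen after their values were seen. Each was read 5′ to 3′ on the strand of the gene and lies upstream of the first exon of that transcript. Capitals mark letters found on either strand that factors of such cells are known to bind. For FOXH1 these were TGTNNATT. For SMAD proteins the letters searched were CAGACA. The FOXA proteins were given TGTTTNC. For the TATA box, the letters were TATAAA. The retinoic acid response element, a direct repeat with a spacer, was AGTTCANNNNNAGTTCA.
CER1, minus strand, chr9:14722734-14722983: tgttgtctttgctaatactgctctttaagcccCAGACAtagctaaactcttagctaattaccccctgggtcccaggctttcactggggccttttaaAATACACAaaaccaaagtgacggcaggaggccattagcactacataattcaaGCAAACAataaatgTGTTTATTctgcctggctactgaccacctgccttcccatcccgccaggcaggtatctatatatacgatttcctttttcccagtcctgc
CXCR4, minus strand, chr2:136118150-136118399, the most upstream of 3 starts: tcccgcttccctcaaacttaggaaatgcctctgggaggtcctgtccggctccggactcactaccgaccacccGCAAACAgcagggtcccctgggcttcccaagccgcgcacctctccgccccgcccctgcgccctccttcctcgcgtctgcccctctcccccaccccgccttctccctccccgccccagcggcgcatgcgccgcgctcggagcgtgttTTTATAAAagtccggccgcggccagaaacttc
CYP26A1, plus strand, chr10:93073643-93073892, the downstream of 2 starts: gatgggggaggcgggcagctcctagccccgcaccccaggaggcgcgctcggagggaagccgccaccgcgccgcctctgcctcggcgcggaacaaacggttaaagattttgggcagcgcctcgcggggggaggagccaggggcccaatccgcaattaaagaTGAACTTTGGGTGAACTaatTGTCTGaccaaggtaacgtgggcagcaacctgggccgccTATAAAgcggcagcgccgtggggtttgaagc

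The CER1 window held AATACACA and TGTTTATT, both matches to the FOXH1 letters, whose first bases lay 154 and 88 bases before the start. It also held GCAAACA, a FOXA match, from base 102 and CAGACA from base 218. The CXCR4 window held GCAAACA from base 178 and an overlapping pair of TATA matches from bases 32 and 30, printed as 1 run of capitals. The window of CYP26A1 held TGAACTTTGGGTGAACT from base 90, TGTCTG from base 70 and TATAAA from base 31. Of 35116 windows of this length in the RefSeq promoter table, 9.88% held the FOXH1 letters, 13.6% the SMAD letters, 15.5% the FOXA letters and 10.7% the TATA letters, so that these are common. The exact letters searched for the retinoic acid response element were in 3 windows, or 0.00854% of them. They allowed no variation outside the spacer, so this share is not that of such elements in general. The windows not printed differed from those shown. Counted from upstream, CXCR4 starts 2 and 3 each held 1 match, to the FOXH1 letters, and CYP26A1 start 1 held 0. No binding was measured in these data, and a match is a description of the letters alone.

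The values are normalized for GC content, carry no unit of reads and give no depth. On days 1, 2 and 3 they summed to between 2345880 and 2354108 per library, with a median of 82 and a maximum of 18734 that 10 genes held in each. From 2020 upwards the values fell into 11 narrow levels shared by the libraries, so a gene at the maximum could go no higher. These levels are unevenly spaced, the highest at 18734 and the next at 6493 to 6502. The size of a difference to or from such a level thus depends in part on the steps between levels. Of the genes counted below, 13 of the higher and 3 of the lower reached such levels. A difference is that of log2(value + 1) throughout, and a gene counted as higher or lower when the mean of its differences at days 2 and 3 from day 1 was at least 2, a 4-fold change. With 1 library per day no difference has a replicate check. The libraries of days 9 and 11, which shared a medium, gave a measure of how far libraries lie apart. Over the 500 genes nearest in level, the standard deviation of their log2 differences was 0.93 around 10, 0.51 around 50 and 0.26 around 1000, and 18 of 8444 genes (0.213%) differed 4-fold between them in either direction. In bulk samples, fewer cells of a type and less RNA per cell cannot be told apart.

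From day 1 to days 2 and 3, 174 of the 8926 genes (1.95%) counted as higher and 42 (0.471%) as lower, against a median difference of -0.05 over all genes compared. The higher genes started low. Their median value was 13 on day 1, 98 on day 2 and 154.5 on day 3, and 67 of them had a day 1 value under 10. For 18 of them day 1 was listed at 0, and for these no fold is given. The lower genes went from a median of 127.5 on day 1 to 32 on day 2 and 20.5 on day 3. Most changes went on between days 2 and 3, since 150 of the 174 higher genes were higher again on day 3 than on day 2 and 33 of the 42 lower genes were lower again. At the threshold, ITGA5, a fibronectin receptor subunit, was just inside with a difference of 2.02 and MYL7, an atrial myosin light chain, just outside with 1.99. GRHL2, an epithelial transcription factor, was just inside among the lower genes at -2.00, and CHGA, a secretory granule protein, just outside at -1.96.

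All 4 DE markers counted as higher, and all 4 had passed 4-fold by day 2. They were given for the comparison beforehand, so this is a check of the label and not a finding. In the intervals of the table, whose build is not named and which are not set against GRCh38 here, CXCR4 spans bases 136871919 to 136873813 of chromosome 2, FOXA2 22561643 to 22566093 of chromosome 20 and CER1 14719722 to 14722715 of chromosome 9. SOX17, the transcription factor that defines endoderm, had a value of 2 on days 0 and 1, 745 on day 2 and 790 on day 3, a mean difference of 8.00. Its day 1 library, labelled early definitive endoderm, was thus at the level of the untreated line. CER1 stood at 6 on day 0, 1638 on day 1 and 18734, the maximum, on days 2 and 3, so its difference of 3.51 is limited by the scale. CXCR4 was at 5 on day 0, listed at 0 on day 1, 157 on day 2 and 568 on day 3. FOXA2, a pioneer factor of endoderm, was listed at 0 on day 0 and had values of 42 on day 1, 200 on day 2 and 190 on day 3, a mean difference of 2.19. The 4 markers were therefore not in step on day 1, when CER1 and FOXA2 were above their day 0 values and SOX17 and CXCR4 were not. On day 3 CXCR4 was again well above its day 2 value, whereas CER1, at the maximum on both days, could show no further rise.

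**Figure D1:**
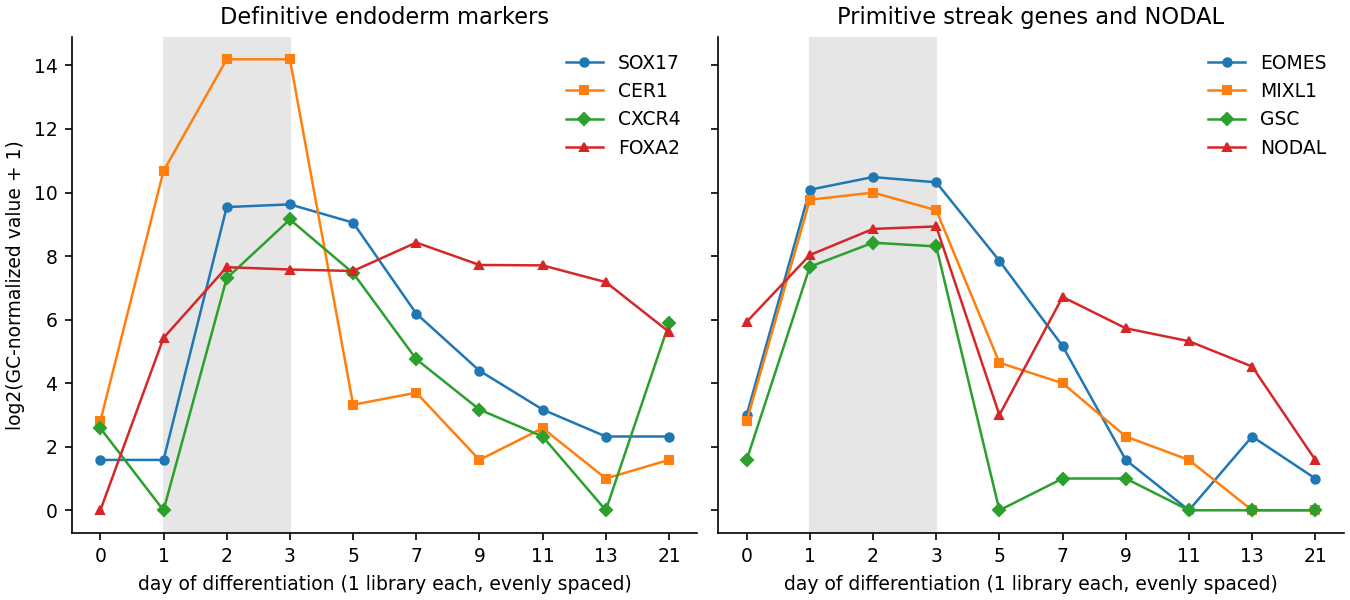
Values on a log2(value + 1) axis over the 10 days of the course, 1 library and 1 point per day, for the 4 DE markers (left) and for 4 genes of the primitive streak and its signalling (right), with days 1 to 3 shaded. SOX17 goes from 2 on day 1 to 745 on day 2, whereas EOMES is already at 1088 on day 1.

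The markers parted again after day 3, when BMP2 and FGF4 replaced Activin A, changes that cannot be told apart. By day 5 CER1 was at 9, while SOX17 was at 530, CXCR4 at 176 and FOXA2 at 184. FOXA2 had its highest value, 343, on day 7. Over the 10 days, the log2 courses nearest to that of CER1 were those of GSC (Pearson's r = 0.976 over 10 days), an organizer transcription factor, and FGF8 (0.974), a growth factor of the streak, and both were listed at 1 or 0 on day 5. The nearest to SOX17 were TMEM150C (0.972), a membrane protein, with values of 2, 112 and 228 on days 1, 2 and 3, and MED17 (0.959), a Mediator subunit, with 66, 109 and 112. KLF8 (0.955), a zinc finger repressor, was nearest to CXCR4. The course of GATA6 (0.951) was among the 5 nearest to FOXA2. These correlations describe courses that share their 10 libraries.

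Transcription factors of DE formed the list with the highest median difference after the markers. Of 18 listed, 17 were in the table, 12 reached the minimum, 8 counted as higher and 0 as lower, with a median difference of 2.80, and SOX17 and FOXA2 are among these. GATA4, a zinc finger factor of endoderm and heart, had values of 6 on day 1, 160 on day 2 and 268 on day 3. Its relative GATA6 had 59, 576 and 642. On day 5 they were at 530 and 480. PRDM1, a transcriptional repressor of endoderm and germ cells, went from 1 to 216 and 208, and HHEX, a factor of anterior endoderm and the liver bud, from 18 to 106 and 139. KLF5 was at 4, 26 and 52. LHX1, a factor of the streak and anterior endoderm, was at 42, 512 and 266, so that its day 2 value was its highest. OTX2, an anterior factor, had 292, 576 and 936, a mean difference of 1.33 that missed the threshold. HNF4A, a factor of the later liver, stayed under the minimum with 4, 18 and 28.

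Genes of the primitive streak took their step earlier. Of 20 listed, 10 were in the table and 8 reached the minimum. All 8 were at least 4-fold higher on day 1 than on day 0, against 123 of all 8926 genes. The minimum was taken on days 1 to 3, so the 8 were kept in part for being high then. Of the members under it, SNAI1 was at 4 on day 0 and 23 on day 1, and PDGFRA at 10 and 5. From day 1 to days 2 and 3, only LHX1 counted as higher and the median difference was 0.48. EOMES, a T-box factor of mesendoderm, had a value of 7 on day 0, 1088 on day 1, 1435 on day 2 and 1279 on day 3. MIXL1, a homeobox factor of the streak, had 6, 874, 1022 and 696. GSC had 2, 202, 342 and 315. WNT3, the ligand that starts the streak, was at 6, 94, 138 and 158. EOMES and MIXL1 were thus still high on day 3 beside SOX17, and were at 230 and 24 on day 5.

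Among genes of Nodal and Activin signalling itself, the inhibitors varied most. None of the 4 ligand and co-receptor genes that reached the minimum passed 4-fold in either direction (median difference -0.17). NODAL was at 60 on day 0, 261 on day 1, 462 on day 2 and 488 on day 3. TDGF1, its co-receptor, was at 2638, 2021 and 2428 on days 1, 2 and 3, within the shared top levels. Of 11 inhibitors, 2 counted as higher: CER1 and DACT2, which promotes the breakdown of Nodal receptors and had values of 0, 42 and 94. LEFTY1, a secreted Nodal antagonist, was at 1046 on day 1, 1157 on day 2 and 4861 on day 3. Its near-identical neighbour LEFTY2 was at 2636, 574 and 6495, over 4-fold lower on day 2 and above day 1 again on day 3. Reads may be split unevenly within such a pair, and the sum of both was 3682, 1731 and 11356. Of 8 receptors and SMADs, 0 passed 4-fold on the mean (median difference 0.31), although SMAD2, the signal transducer, was at 232, 354 and 938 and crossed the threshold on day 3 alone.

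Other signalling pathways changed at the level of a few genes each. In the Wnt list, 3 of 20 members counted as higher and 1 as lower, with a median difference of 0.65. LGR5, an R-spondin receptor, was listed at 0 on day 1 and was at 44 on day 2 and 198 on day 3. DKK1, a secreted Wnt inhibitor, was at 2, 176 and 214, and the receptor gene FZD8 at 64, 364 and 456. SFRP2, another secreted inhibitor, fell from 1021 to 299 and 171, while its relative SFRP1 had values of 373, 1021 and 1490. DKK4 took yet another course, with 108, 200 and 16. The inhibitors of this pathway thus differed in direction.

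In the FGF list, 3 of 21 members counted as higher and 0 as lower, but the median difference was -0.33. At 2-fold the list held 6 higher and 4 lower members, against 565 and 321 of all 8926 genes. FGF17, a ligand of the FGF8 subfamily, had a value of 3 on day 0, 80 on day 1, 1386 on day 2 and 2426 on day 3, a mean difference of 4.50. It was back at 90 on day 5. FGFR3, a receptor, had 42, 181 and 234, and FLRT3, a membrane partner of FGF receptors, 41, 172 and 176. The 4 members on the other side were DUSP6 (1185, 478 and 314) and SPRY4 (854, 442 and 326), feedback inhibitors of the ERK pathway, the transcription factor ETV1 (312, 189 and 122) and FGF2 (157, 84 and 60), the ligand that maintains hESCs. Other feedback inhibitors of ERK were on the higher side, with DUSP4 at 70, 144 and 232 and SPRED2 at 55, 108 and 122. In the BMP list 1 of 9 members counted as higher. This was BMP2, a ligand also supplied to the cells after day 3, with values of 20, 343 and 450. ID3, a response gene of BMP signalling, was at 492, 295 and 198, and ID1, another, at 324, 619 and 504.

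CYP26A1, which breaks down retinoic acid, was at 5 on day 0, 56 on day 1, 1216 on day 2 and 3434 on day 3, a mean difference of 5.16. Of the 8 retinoid genes at the minimum, it was the 1 that passed 4-fold (list median 0.37). Among cell surface receptors and their ligands, 5 of 11 counted as higher and 0 as lower (median difference 1.24). CXCR7, the second receptor of the chemokine CXCL12, followed the pattern of CXCR4 with 0, 106 and 282. CXCL12 itself was at 100, 37 and 22, a mean difference of -1.77, so that the receptors and their ligand moved apart. S1PR3, a sphingosine phosphate receptor, had 70, 407 and 684, and the ephrin receptors EPHA4 and EPHB3 had 6, 108, 137 and 10, 56, 40.

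Genes of the pluripotent state were lower as a group but few had crossed the threshold. Of 21 at the minimum, 0 counted as higher and 1 as lower. At 2-fold, 8 were lower and 1 higher, against 321 and 565 of all 8926 genes. The median difference was -0.59 on day 2 and -1.02 on day 3. POU5F1, which encodes OCT4, had a value of 6498 on day 1, 2640 on day 2 and 1280 on day 3, and on day 3 alone it was past 4-fold. TERF1, a telomere-binding protein abundant in hESCs, was the 1 lower member, with 2972, 698 and 613. NANOG was at 582, 323 and 286, and SOX2, which neural cells also express, at 132, 146 and 82 after 371 on day 0. LIN28A, an RNA-binding protein, was level at 2800, 2971 and 2971. On day 5, NANOG was at 26 and SOX2 at 2, so on the log2 scale the larger part of their fall lay after day 3. In the values themselves it lay before, with SOX2 at 371 on day 0 and 82 on day 3, and NANOG at 582 on day 1 and 286 on day 3.

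**Figure D2:**
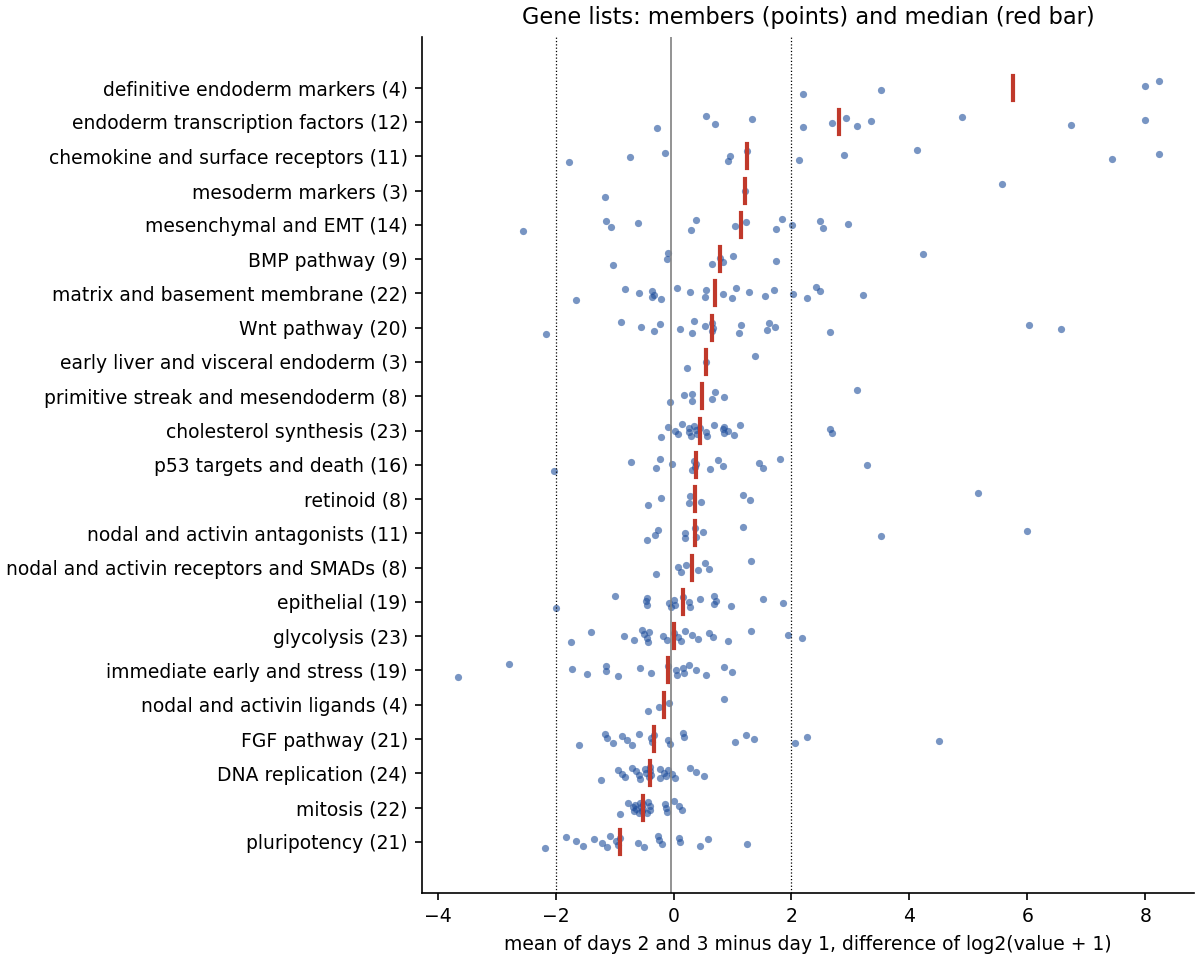
Difference of log2(value + 1), mean of days 2 and 3 minus day 1, for the members of each gene list that reached the minimum (points, with the number of members in brackets) and the list median (red bar), for lists with at least 3 such members. Dotted lines mark 4-fold and the grey line marks the median of all 8926 genes at -0.05. Endoderm transcription factors have a median of 2.80 and pluripotency genes one of -0.91.

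Adhesion and matrix genes changed in a mixed way. Of 14 mesenchymal genes and genes of the epithelial to mesenchymal transition (EMT), 4 counted as higher and 1 as lower (median difference 1.14). At 2-fold, 8 were higher and 3 lower, against 565 and 321 of all 8926 genes. The lower ones included THY1 (398, 220 and 147) and TCF4 (338, 191 and 136). The EMT factors SNAI1 (23, 36 and 24), SNAI2, ZEB1 and ZEB2 stayed under the minimum. CDH2, N-cadherin, had values of 489 on day 1, 2168 on day 2 and 3431 on day 3. VIM, the intermediate filament vimentin, had 302, 1437 and 2168, KLF8 10, 68 and 106, and ITGA5 186, 620 and 920. CDH11, a cadherin of mesenchyme, fell from 50 to 18 and 3. CDH1, E-cadherin, was at 808, 484 and 342, a mean difference of -0.99. The other epithelial genes did not follow it as a list, with 0 of 19 higher, 1 lower and a median of 0.16. GRHL2 was the lower 1, with 114, 32 and 24, and the keratins KRT8 (937, 2970 and 3864) and KRT19 (284, 703 and 936) were at least 2-fold higher. N-cadherin and these keratins thus had their higher values in the same libraries.

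Of 22 matrix genes, 5 counted as higher and 0 as lower (median difference 0.70). COL5A2, a chain of type V collagen, had a value of 2026 on day 1 and 18734, the maximum, on days 2 and 3, and COL5A1, its partner chain, had 162, 522 and 838. MATN3, a cartilage matrix protein, was at 80, 314 and 650, FBN1, fibrillin, at 13, 58 and 93, and COL4A6, a basement membrane collagen, at 53, 146 and 452. VCAN, a proteoglycan, was on the other side with 1640, 574 and 474. MATN3, COL4A6, COL5A1 and COL4A1, another basement membrane collagen with 226, 541 and 1000, first passed 4-fold on day 3.

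Metabolic and growth genes showed smaller differences. In cholesterol synthesis 21 of 23 members had a difference above 0, with a median of 0.44 against -0.05 over all genes compared. Only 2 of them passed 4-fold. HMGCS1, an early enzyme of the mevalonate pathway, was one, with values of 2970, 18734 and 18734. The glycolysis list had a median of 0.00. Its 1 higher member was SLC2A3, a neuronal and embryonic glucose transporter, with 2430, 6495 and 18734, while SLC2A1, the widespread one, had 726, 332 and 228. Of 16 p53 targets and death genes, CDKN1A, a cell cycle inhibitor, was higher with 5, 36 and 90, and PMAIP1, a pro-apoptotic BH3 protein, lower with 744, 218 and 152.

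The 22 mitosis genes were at their day 1 level on day 2 (median difference -0.06) and lower on day 3 (-0.90). None passed 4-fold, and all 22 were lower on day 3 than on day 2. On day 3, 8 were at least 2-fold below day 1 after lying within 2-fold of it on day 2, as did 353 of all 8926 genes. TOP2A, the topoisomerase of dividing cells, had 1214, 1156 and 612, CDK1, the kinase that starts mitosis, 876, 790 and 390, and BUB1B, a spindle checkpoint kinase, 484, 357 and 187. Of 24 DNA replication genes, 23 were lower on day 3 than on day 2, with medians of -0.16 on day 2 and -0.61 on day 3. The median step from day 2 to day 3 was -0.84 for mitosis and -0.45 for replication genes, against -0.03 over all 8926 genes. Cell cycle genes therefore moved with the step from day 2 to day 3, and the part of cell division in the day 3 differences was not tested.

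The immediate early and stress list was mixed. Its 19 members at the minimum had a median difference of -0.09, with 9 above 0 and 10 below, and 0 counted as higher and 2 as lower. On day 1, 4 of them had been at least 4-fold above day 0, against 123 of all 8926 genes compared. EGR1, an early response transcription factor, had values of 73 on day 0, 244 on day 1, 10 on day 2 and 33 on day 3. CTGF, a matrix protein induced early, had 184, 2640, 348 and 416. FOS was at 154, 50 and 42 and JUN at 182, 65 and 102 on days 1, 2 and 3. IER3, another early response gene, was at 137 on day 0 and stayed at 936, 901 and 1022, and DDIT4, a stress gene, went from 462 on day 0 to 37, 80 and 69. Such genes also answer to handling, and the part of handling in the day 1 library was not tested.

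Markers of other fates were few in the table, and those of mesoderm did not all stay level. Of 20 mesoderm markers, 9 were in the table and 3 reached the minimum, and the 9 summed to 310 on day 1, 450 on day 2 and 416 on day 3. Of the 3, 1 counted as higher and 0 as lower. At 2-fold, 2 were higher and 1 lower, against 565 and 321 of all 8926 genes. The median difference of these 3 was 1.21. The member that was 2-fold lower was TEK, at 185, 76 and 88 on days 1, 2 and 3. TBX3, which early endoderm also expresses, was listed at 0 on day 1 and was at 52 and 42. KDR, the VEGF receptor of mesoderm, was at 106, 252 and 240, PDGFRA, a receptor of mesoderm that stayed under the minimum, at 5, 44 and 20, HAND1, which marks lateral mesoderm, at 1, 2 and 2, and FOXF1 was listed at 0 on all 3 days. Of 12 trophoblast and amnion markers 7 were in the table, with a sum of 491, 412 and 363 and CDX2 listed at 0. Most of this sum was GABRP, at 454, 368 and 315 after 1642 on day 0, while GATA3, under the minimum, was at 7, 16 and 28. Of 15 ectoderm markers only NES was in the table, at 980, 919 and 919. Of 19 liver and visceral endoderm genes, 3 reached the minimum and 0 passed 4-fold, and TTR was at 2, 0 and 0. APOC1, an apolipoprotein, was at 90, 170 and 326. The part of other cell types in the differences was not tested.

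By timing, 125 genes (1.4%) were already at least 4-fold higher on day 2 and 27 (0.302%) lower, and on day 3 the counts were 252 (2.82%) and 65 (0.728%). Genes past 4-fold only on day 3 numbered 134 higher and 46 lower. This boundary was soft, since 133 of the 134 were above day 1 on day 2 as well, with a median difference of 1.45 on day 2 and 2.38 on day 3, and 42 of the 46 were below it, with -1.39 and -2.40. Where the day 2 difference had to stay under 2-fold, 21 higher and 12 lower genes were left. Between days 2 and 3 themselves, 32 genes went up and 8 went down by 4-fold or more, so the larger number of steep changes fell before day 2.

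**Figure D3:**
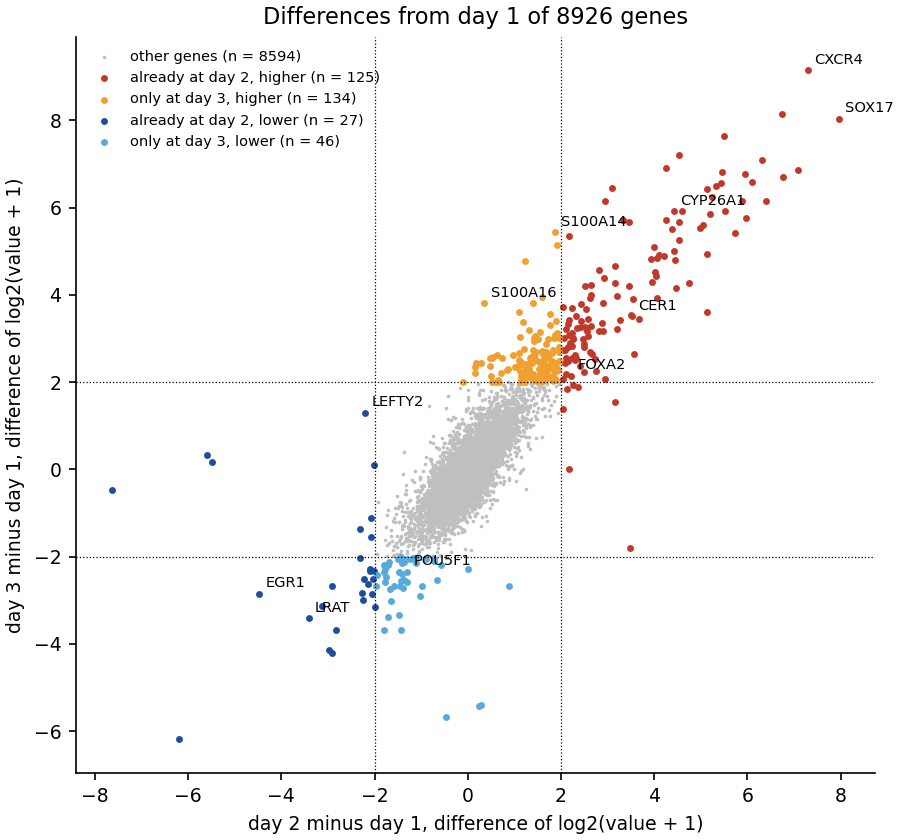
Difference of log2(value + 1) from day 1 on day 2 (horizontal) and on day 3 (vertical) for 8926 genes, 1 point each, with dotted lines at 4-fold. Both axes subtract the same day 1 library, so points lie along the diagonal in part by construction, and a gene listed at 0 on a day takes its position from the added 1. The 125 genes already higher on day 2 lie to the right of the right line and the 134 genes higher only on day 3 lie to its left and above the upper line.

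The 5 largest day 3 differences among genes higher only on day 3 included a pair of neighbours. S100A16, a calcium-binding protein, had values of 24 on day 1, 31 on day 2 and 351 on day 3. S100A14, of the same family and 4918 bases away in the table's intervals, had 2, 10 and 130 and went on to 790 on day 5. EPSTI1 was at 3, 14 and 141, STMN2, a regulator of microtubules in neurons, at 5, 13 and 163, and TNNC1, the troponin C of heart and slow muscle, at 7, 23 and 122. On the lower side the same class held DACT1, an intracellular modulator of Wnt signalling, with 320, 92 and 24, and HSPA8, a chaperone, which left the maximum of 18734 on days 1 and 2 for 3862 on day 3. DACT1 and DACT2, of 1 family, thus moved in opposite directions.

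A smaller set had passed 4-fold on day 2 and was back within it on day 3, 7 higher and 8 lower. SEMA5B, a semaphorin, was at 28, 138 and 110 and EPHB3 at 10, 56 and 40, which differ little between days 2 and 3. ATP2A3, a calcium pump, was at 69, 13 and 26. Several of the others overlap another gene on the same strand or are near-identical to one. MSANTD3-TMEFF1, a read-through transcript, had 197, 0 and 142 while TMEFF1 inside it had 26, 239 and 78, and the sum was 223, 239 and 220. Both counted as changed on the mean, in opposite directions, and their sum did not. AC022415.1 was at 6, 77 and 1 and ZNF788, which overlaps it, at 101, 26 and 60, with sums of 107, 103 and 61. These calls are uncertain.

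The 15 largest rises on the mean were CXCR4, SOX17, CXCR7, RP11-73M18.2, PRDM1, NR0B1, LGR5, TMOD1, ARHGAP24, ITGA4, SLC5A9, DKK1, DACT2, NTN4 and GOLGA6L9, and all but SOX17, PRDM1 and DKK1 were listed at 0 on day 1, so that their order depends on the added 1. NR0B1, the orphan nuclear receptor DAX1, was at 0, 78 and 135, TMOD1, a cap of actin filaments, at 0, 61 and 108, and NTN4, a netrin of basement membranes, at 0, 39 and 90. ITGA4, an integrin chain, had 39 on day 0, 0 on day 1, 84 and 70. RP11-73M18.2 had 74 on day 0 and then 0, 135 and 116, and it overlaps KLC1 and APOPT1 on the same strand, so its value is uncertain, as is that of GOLGA6L9, of a family of near-identical copies.

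**Figure D4:**
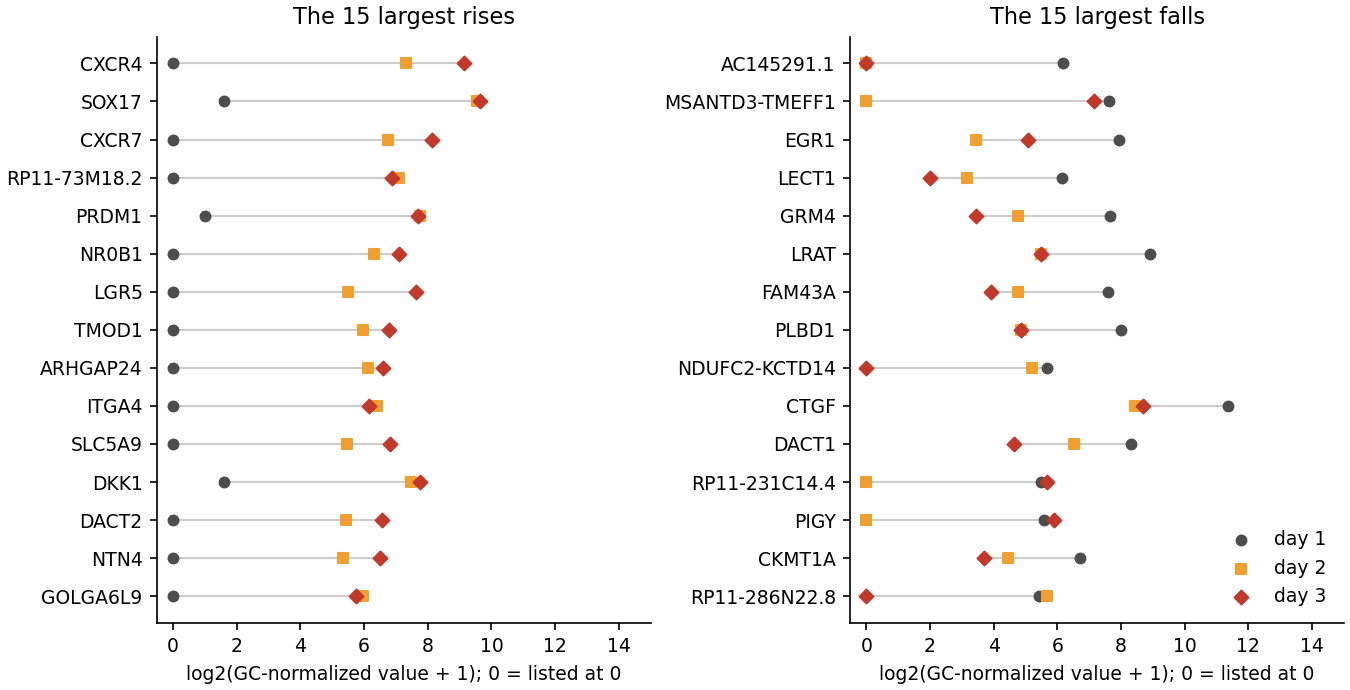
Values on a log2(value + 1) axis on days 1, 2 and 3 for the 15 genes with the largest rises (left) and the 15 with the largest falls (right), 1 library per day. A point at 0 is a gene listed at 0 on that day, which on the left holds for 12 of the day 1 points. CTGF starts at 2640 and SOX17 ends at 790.

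Among the 15 largest falls, 9 had values above 0 on all 3 days, among them EGR1, CTGF and DACT1. LRAT, which esterifies retinol, had 478 on day 1 and 44 on days 2 and 3. GRM4, a glutamate receptor, had 202, 26 and 10, FAM43A 191, 26 and 14, PLBD1, a phospholipase-like protein, 254, 28 and 28, and LECT1, chondromodulin, 70, 8 and 3. CKMT1A, a mitochondrial creatine kinase with a near-identical copy, was at 103, 21 and 12. The rest were AC145291.1 (72, 0 and 0), NDUFC2-KCTD14 (50, 36 and 0), RP11-286N22.8 (42, 50 and 0), PIGY (47, 0 and 59), RP11-231C14.4 (44, 0 and 50) and MSANTD3-TMEFF1, each listed at 0 on at least 1 day, and PIGY and RP11-231C14.4 were above day 1 again on day 3. Of the 174 higher genes 4 overlapped another gene of the table on the same strand, and of the 42 lower genes 3 did.

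Outside the days compared, many of the higher genes were low before treatment, and their later courses divided. Of the 174, 74 had a day 0 value under 10, against 130 of all 8926 genes. This is in part set by the choice of genes low on day 1. From day 0 to day 1, 21 of the 174 had gone up and 20 down by 4-fold or more, against 123 and 49 of all 8926. Their highest value of the whole course was on day 3 for 80 and on day 5 for 29, against 917 and 801 of all 8926. Between days 3 and 5, 46 of them fell by 4-fold or more, against 226 of all 8926 genes. By day 21, 45 were at or below their day 1 value, as were 5513 of the 8926, and 50 at or above their day 3 value, as were 3340. Of the 42 lower genes, 24 had their highest value on day 1 and 12 on day 0, against 1531 and 1579 of all 8926. Among the 42, 11 had gone up by 4-fold or more from day 0 to day 1, against 123 of all 8926. On day 21, 37 of the 42 were at or below their day 1 value, as were 5513 of all 8926. Since the threshold selects genes low on day 1 and high on day 3, or the reverse, high values on those days are in part set by the choice.

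**Figure D5:**
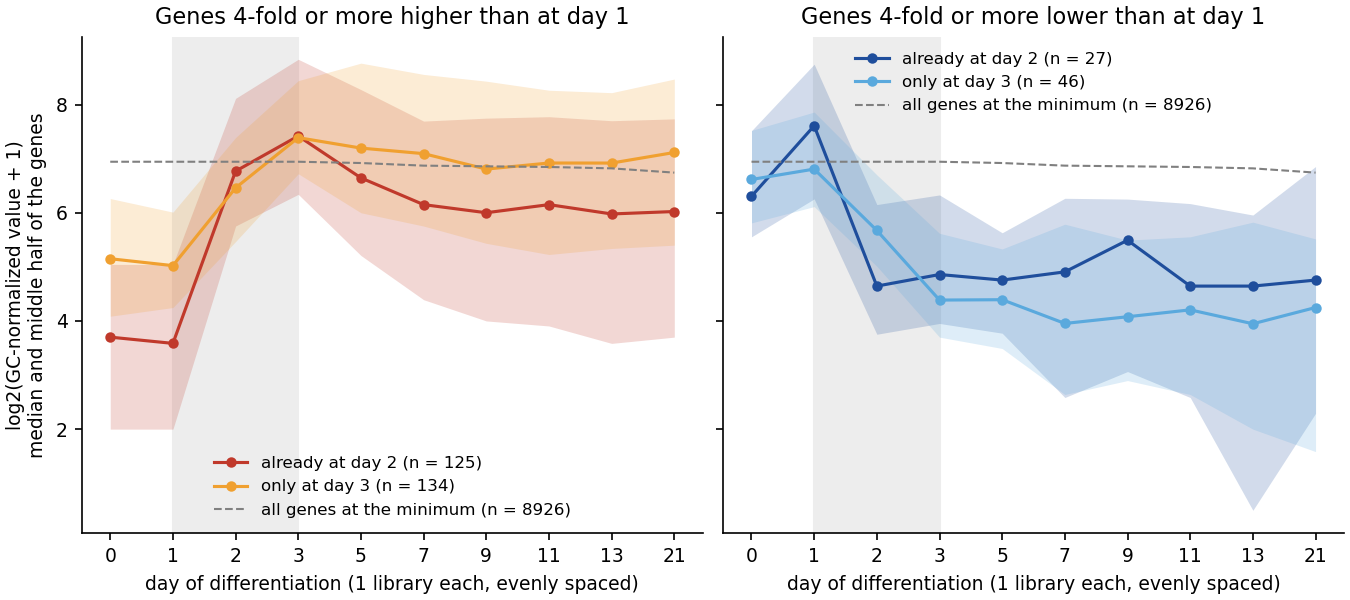
Median of log2(value + 1) over the 10 days (lines, with the middle 50% of genes shaded) for genes already 4-fold changed on day 2 and genes changed only on day 3, higher (left) and lower (right), beside the median of all 8926 genes (dashed), with days 1 to 3 shaded in grey. Genes higher already on day 2 go from a median value of 11 on day 1 to 170 on day 3 and 64 on day 21, and genes higher only on day 3 from 31.5 to 166.5 and 137.5.

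The later medians of the 2 timing sets of higher genes lay apart. Those already higher on day 2 had a median value of 170 on day 3, 99 on day 5 and 70 on day 7, and 54 of the 125 were at least 4-fold lower on day 7 than on day 3. Those higher only on day 3 had medians of 166.5, 145.5 and 135.5, and 33 of the 134 were at least 4-fold lower on day 7, against 470 of all 8926 genes. The set already higher on day 2 had also risen further by day 3, with a median difference from day 1 of 3.72 against 2.38. It thus had more room to fall, so the contrast is in part set by how the classes were made. No test of the contrast was possible with 1 library per day. CXCR7, for one, was at 282 on day 3 and 33 on day 5, and FGF17 at 2426 and 90, whereas TNNC1 was at 122 and 540.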

How the data were processed

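H1 hESCs were sampled on 10 days with 1 library each, and the column of each library was matched to its day by name. The authors prepared bulk RNA-seq libraries, estimated expression against a transcriptome with Bowtie2 2.2.0 and RSEM 1.2.17, per the submitters' processing notes, and normalized for GC content. The deposited values are scores, whole numbers of a shared distribution, and not read counts, so depth is unknown. The notes name both hg19 and mm10 without a role, and the build of the table's intervals is not named. No column of values was left unmapped.

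Differences of log2(value + 1) from day 1 were computed for genes with a largest value of at least 50 on days 1, 2 and 3 (Python 3.11.15, numpy 2.4.6, pandas 2.3.3, with plots in matplotlib 3.10.9). Medians include genes listed at 0 through the added 1. The code was tested on simulated data made of the day 1 values copied to days 2 and 3 without noise. Of 12125 genes, 200 with day 1 values of at least 50 were given 8-fold changes, and 200 of 200 fell into their class. Without noise this checks the counting alone, and not how well changes are found in real libraries or from low values. Named were the 4 markers, the 15 largest rises and falls, 5 genes per timing class and direction, members of gene lists, and the 5 courses nearest each marker. Members and lists were chosen with earlier results of these data known. MYL7, CHGA, HSPA8 at day 3, ZNF788, genes of the closing observations, and those named for overlap or for the threshold were chosen after their values were seen. No test was run, since each day had 1 library. The values of some single genes are left out here. Alternatives tried were other pseudocounts, minima, thresholds, a scaling and single days. Promoters came from the RefSeq table for GRCh38.p14, of which only the bases before the start were searched.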

Additional observations from a re-analysis of the deposited data

How the results depend on the processing

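Counts are given as higher and lower genes on the mean, then already on day 2, then only on day 3. With a minimum of 10 in place of 50 they were 299 and 100, 239 and 99, and 191 and 107. With a minimum of 200 they were 77 and 16, 56 and 12, and 57 and 14, and with none 328 and 116, 280 and 132, and 223 and 123. At 2-fold they were 565 and 321, 443 and 241, and 359 and 353, and at 8-fold 75 and 9, 61 and 7, and 53 and 12. By their construction, lower minima and thresholds count more genes. Day 2 alone gave 125 and 27 and day 3 alone 252 and 65. With the day 2 difference held under 2-fold, 21 and 12 genes changed only on day 3. Day 2 alone turned AC012215.1 to 0.28 and RP11-286N22.8 to 0.25, and day 3 alone turned PIGY to 0.32 and RP11-231C14.4 to 0.18, each a gene listed at 0 on the other day. All counts stayed within 1.5 times under pseudocounts of 0.1 and 5, a scaling by the median of ratios, leaving out genes at the shared top levels and, chosen after seeing the data, leaving out genes listed at 0 on day 1, 2 or 3. The differences of single genes depended more on the added 1: of 46 named genes, 22 moved under a pseudocount of 0.1 and 24 under 5, among them SOX17 from 8.00 to 6.79 under 5. No paired analysis was possible because each day had 1 library, and no replicate could be left out.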

Other observations

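Some further genes among those that changed are given here by their values. Their choice came after the values were known, and they form no list that was counted. NPPB, a natriuretic peptide of heart muscle, had values of 1 on day 1, 16 on day 2 and 175 on day 3. ANKRD1, a cardiac ankyrin repeat protein, had 3, 30 and 282, and MYOCD, a coactivator of muscle genes, 2, 26 and 57. MYL4, an atrial myosin light chain, was listed at 0 on day 1 and was at 10 and 50. ANKRD1 reached 1638 on day 5 and MYL4 258, so both went on after Activin A was replaced by BMP2 and FGF4, while MYOCD was at 14.

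TNC, a matrix glycoprotein, had 60, 1279 and 2798, and HAS2, which makes hyaluronan, 34, 650 and 1044. Thrombospondin THBS1, on the lower side, had 402, 98 and 70, and PDGFB, a growth factor, 456, 106 and 90. PLXNA2, a semaphorin receptor, was at 47, 781 and 1108, NRP1 at 5, 43 and 60, NRP2 at 72, 254 and 405, SEMA6D at 10, 140 and 120 and NTN1 at 75, 371 and 466. STC1, a secreted glycoprotein, was at 11, 228 and 1434. SERPINB9, an inhibitor of granzyme B, was at 534, 18734 and 6493, and it held the maximum on day 2 alone of the 3 days.

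Some higher genes lay close together in the table's intervals. LINC00261, a noncoding RNA gene 2363 bases from FOXA2, had values of 2, 98 and 146 and reached 1089 on day 7, the day of the highest FOXA2 value, 343. FREM1, a basement membrane protein, 14435 bases from CER1, had 14, 527 and 456, and like CER1, at 9, it was low on day 5 with 13. TDRD7, 5514 bases from TMOD1, had 9, 314 and 463. RHOBTB3 and GLRX, 19307 bases apart, had 24, 872 and 2164 and 24, 96 and 138. In all, 7 such pairs within 100000 bases were found among the higher genes and 1, GLB1L3 and GLB1L2, among the lower genes. How many pairs such numbers of genes give elsewhere was not tested.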
